A study of Homo sapiens with 14 samples.

Results

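Mitosis and cytokinesis genes are described here in neutrophil-like cell lines: 59 genes whose proteins drive cells into mitosis, build the spindle, hold and separate the chromosomes and split the cell. Their names formed a fixed list, and each was found as 1 row with an NCBI gene ID in the table of normalized values, so that they make up 59 of 60707 rows and 59 of the 37466 rows with such an ID. RNA was sequenced from HL-60, a human myeloid leukemia line, and from PLB-985, a line since recognized as a sub-line of HL-60. The PLB-985 cells expressed an H2B-mCherry reporter, so that an effect of the reporter and one of the line cannot be told apart. Each line was taken after 6 days in medium holding Nutridoma at 2%, FBS at 0.5% and DMSO at 1.3% (DMSO+Nutridoma), after 6 days with DMSO at that dose in 9% FBS (DMSO), and undifferentiated in 9% FBS, with 2 replicates per group. Nutridoma is a supplement that stands in for serum, so the protocols with and without it differ in both serum and supplement. PLB-985 cells were also taken on day 2 and day 4 with DMSO+Nutridoma, as 1 library each, and these entered no test.

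Entry into mitosis is driven by CDK1 bound to cyclins A and B, and its end by the anaphase-promoting complex (APC/C), a ubiquitin ligase that marks cyclin B and securin for destruction. Between these steps kinetochores tie the chromosomes to spindle microtubules, the spindle checkpoint holds back the APC/C until all are attached, and afterwards an actomyosin ring and the midbody part the daughter cells. Most of the genes are transcribed in the G2 and M phases and are low in cells that have left the cycle. Maturing granulocyte precursors stop dividing in the bone marrow, and blood neutrophils do not divide. In bulk RNA fewer dividing cells and less RNA per dividing cell cannot be told apart.

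Values are normalized FPKM, that is, fragments on a gene's transcripts per length and per sequenced library, multiplied by the authors' factor for that library. Where 2 values are given, the first is replicate 1. Total FPKM per library was 739094 to 1082042, read counts were not in the tables, and the precision that depth gives each value is therefore unknown. The 5 neutrophil markers ITGAM, FPR1, CSF3R, S100A8 and S100A9 summed to 11205 to 20079 on day 6, against 203 to 489 undifferentiated. Transcripts of the mitochondrial genome took 5.30 to 7.66% of FPKM on day 6 in replicate 1, against 2.60 to 5.30% undifferentiated, and 10.1 to 14.2% in replicate 2, against 5.84 to 7.02%, and the part of this in the results was not tested. Of the 5009 rows whose median reached 20 FPKM, 32 were listed at 0 in a replicated library, and 1 of these zeros belongs to the list, that of CCNA2 in replicate 1 of undifferentiated PLB-985 cells. The study describes the experiment as repeated on 2 days more than 2 months apart. P values measure the spread that remains between replicates once a shift shared by all libraries of a replicate number is removed. This spread was estimated over the 6 groups together.

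The genes share sequence that their selection did not use. Promoters of late cell cycle genes are known for the cell cycle genes homology region (CHR), the site that MuvB complexes bind, and for CCAAT boxes, the site of the factor NF-Y. RefSeq promoter windows of GRCh38.p14, from 250 bases before to 50 after the start of the first transcript listed, were found for 51 of the 59 genes. The CHR letters searched for (TTTGAA or TTCGAA, on either strand) occurred in 38 of the 51 windows (74.5%), against 11.2% of the 8652 windows of tested genes and 16.6% of all 27305. A CCAAT box, on either strand, also occurred in 38 (74.5%), against 37.0% of the windows of tested genes and 35.7% of all. At least 1 of each was found in 30 windows (58.8%), against 4.75% and 6.58%. The CHR lay within 100 bases before to 50 after the start in 33 windows (64.7%), against 4.50% of the windows of tested genes. CHR letters alone were in 8 windows, CCAAT alone in 8, and neither in 5, those of CDC25B, CDC25C, CENPE, KIF2C and CKAP2. A match is a stretch of letters and not a measured site, and its absence refers to this window and to the letters searched for only.

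The sequences below are the 120 bases before the start of 8 genes and show how the motifs lie in 6 members that hold both, in 1 with CCAAT boxes alone and in 1 with neither. Capitals mark CHR and CCAAT letters, which read TTCAAA and ATTGG where they lie on the other strand. CCNB2 (chr15:59105026-59105145, plus strand), PLK1 (chr16:23678769-23678888, plus), CDC20 (chr1:43358861-43358980, plus), KIF11 (chr10:92593010-92593129, plus), PRC1 (chr15:90994536-90994655, minus) and INCENP (chr11:62123891-62124010, plus) hold both motifs. CCNB1 (chr5:69167030-69167149, plus) is shown for a promoter with CCAAT boxes alone, and CKAP2 (chr13:52455868-52455987, plus), the gene that changed least in PLB-985 cells with either protocol among those with complete values, for one with neither.
CCNB2: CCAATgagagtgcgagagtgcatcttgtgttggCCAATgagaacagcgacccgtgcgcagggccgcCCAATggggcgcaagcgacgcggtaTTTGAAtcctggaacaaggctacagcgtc
PLK1: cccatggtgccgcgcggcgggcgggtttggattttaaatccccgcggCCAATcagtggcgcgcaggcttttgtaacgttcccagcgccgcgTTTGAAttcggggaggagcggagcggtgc
CDC20: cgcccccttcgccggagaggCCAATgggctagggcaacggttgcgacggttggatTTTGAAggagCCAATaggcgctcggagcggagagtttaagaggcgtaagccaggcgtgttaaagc
KIF11: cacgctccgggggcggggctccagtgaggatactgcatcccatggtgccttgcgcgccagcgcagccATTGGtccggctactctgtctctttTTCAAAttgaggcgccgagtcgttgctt
PRC1: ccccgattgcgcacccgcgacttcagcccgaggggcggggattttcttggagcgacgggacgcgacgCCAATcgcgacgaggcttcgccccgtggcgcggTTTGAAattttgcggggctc
INCENP: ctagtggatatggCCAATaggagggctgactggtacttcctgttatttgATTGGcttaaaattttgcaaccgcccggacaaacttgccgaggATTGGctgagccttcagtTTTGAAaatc
CCNB1: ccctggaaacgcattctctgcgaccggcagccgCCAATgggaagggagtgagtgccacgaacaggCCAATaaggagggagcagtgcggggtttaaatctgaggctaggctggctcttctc
CKAP2: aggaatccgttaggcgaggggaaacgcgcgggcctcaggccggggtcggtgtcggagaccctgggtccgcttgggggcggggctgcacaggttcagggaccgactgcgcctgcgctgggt
The CHR began 29 bases before the start in CCNB2 and PLK1, 28 in KIF11, 20 in PRC1 and 10 in INCENP. In CDC20 it began 65 bases before the start, between CCAAT boxes. The CCNB2 stretch holds 3 CCAAT boxes, as does that of INCENP, and CCNB1 holds 2. The 59 genes themselves lie on 21 chromosomes, with at most 7 on any, chromosome 1.

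**Figure D1:**
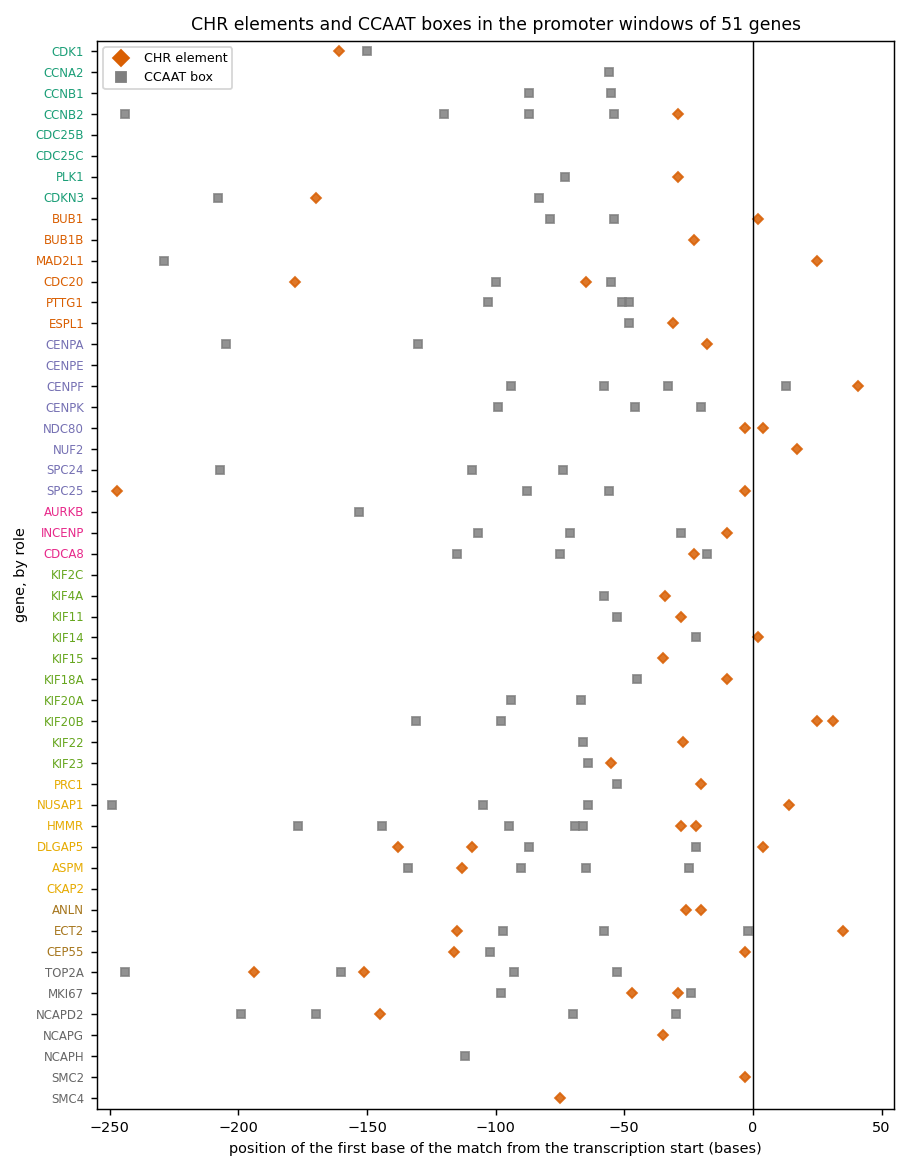
CHR elements (diamonds) and CCAAT boxes (squares) in the promoter windows of 51 genes, plotted by the distance of the first matching base from the transcription start (bases, negative before the start). Most diamonds lie close to the start and most squares before them, and 5 rows hold neither.

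The first question is how far the genes fell during differentiation, measured on day 6. With DMSO+Nutridoma 57 of the 59 genes fell in PLB-985 cells (35.8% of the 13778 genes tested fell) and 59 in HL-60 cells (33.6% fell). With DMSO alone 58 fell in PLB-985 cells (35.8% of all fell) and 58 in HL-60 cells (34.7% fell). None rose in any of these comparisons with limma, and 0 did at an unadjusted p under 0.05, where 24% (PLB-985) and 25.5% (HL-60) of all genes tested rose with DMSO+Nutridoma, and 24.6% and 26% with DMSO. The median log2 fold change of the 59 genes was -1.97 in PLB-985 cells and -2.95 in HL-60 cells with DMSO+Nutridoma, and -2.35 and -2.54 with DMSO, where the medians of all genes tested were -0.16, -0.12, -0.15 and -0.11 in the same order. Fold changes are from limma on log2 of the value plus 1, which understates the change of low genes, and the threshold on the adjusted p was 0.05. Both protocols were compared with the same undifferentiated libraries.

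Measured as a level left on day 6, the median gene kept 23.8% of its undifferentiated mean in PLB-985 cells with DMSO+Nutridoma and 16.3% with DMSO (58 genes, CCNA2 left out), and 8.19% and 13.4% in HL-60 cells (59 genes). BUB1B kept least in PLB-985 cells, with 10.6% under DMSO+Nutridoma and 8.32% under DMSO. CENPM kept least in HL-60 cells, with 3.09% and 5.64%. CKAP2 kept most in PLB-985 cells with 63.1% and 55.1% and in HL-60 cells with DMSO, 60.5%, and ESPL1 kept most in HL-60 cells with DMSO+Nutridoma, 39.1%. The summed level of the 59 genes was 724 and 522 in PLB-985 cells with DMSO+Nutridoma and 543 and 420.0 with DMSO, against 2553 and 2630.5 undifferentiated. In HL-60 cells it was 318 and 196 with DMSO+Nutridoma and 433 and 272 with DMSO, against 1980.0 and 2279.6 undifferentiated. Within each replicate the sum was lower on day 6 than in undifferentiated cells of that replicate, and it was lower in replicate 2 than in replicate 1 in all 4 day 6 groups.

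**Figure D2:**
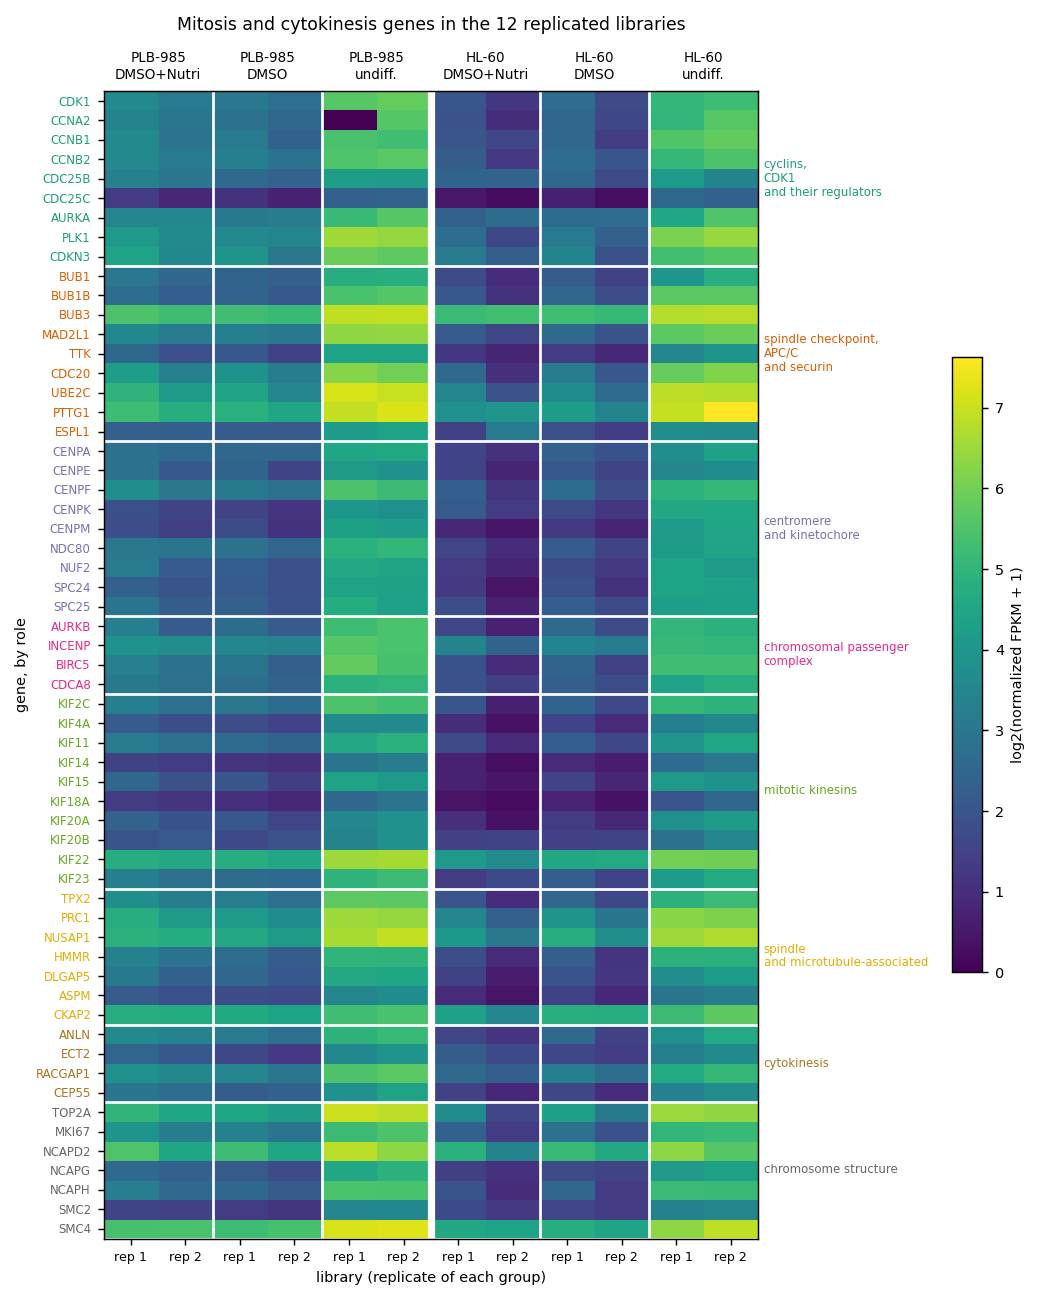
Level of the 59 genes, as log2(normalized FPKM + 1) on the colour scale, in the 12 replicated libraries (columns, grouped by line and state, 2 replicates each), with genes in rows coloured by role. The 4 undifferentiated columns are the brightest in nearly every row, the dark square among them is CCNA2 at 0, and the darkest column, with the lowest sum, is the HL-60 library with DMSO+Nutridoma from replicate 2 (196).

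**Figure D3:**
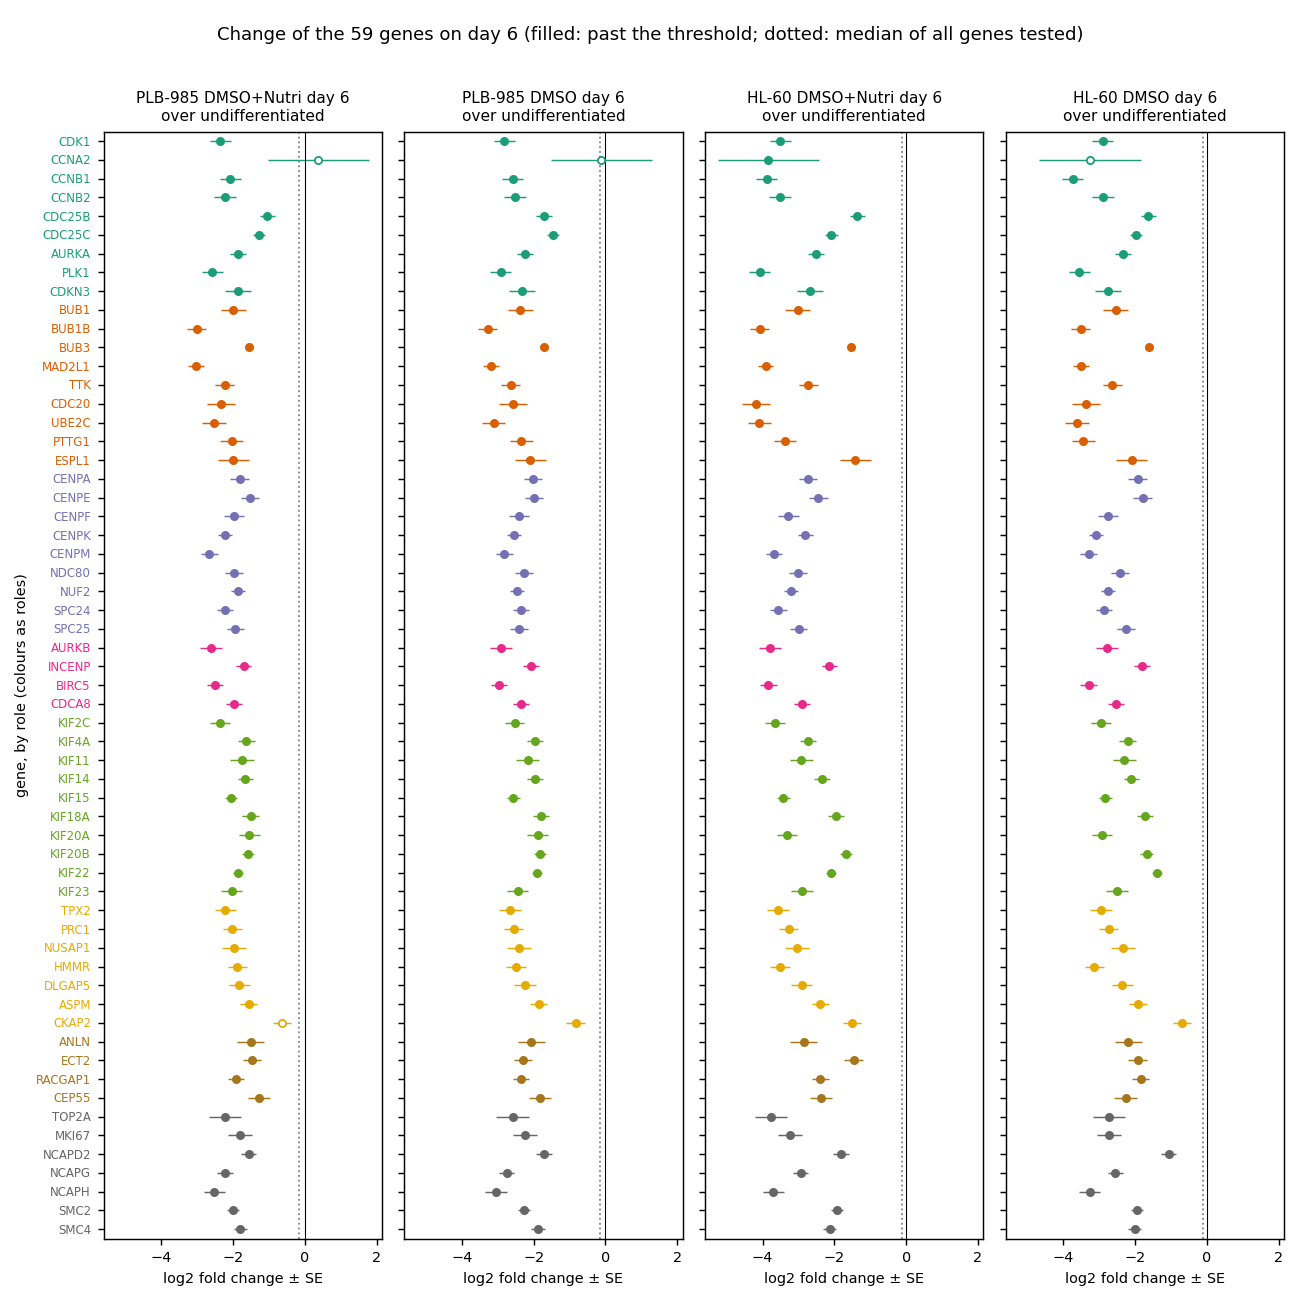
Log2 fold change ± SE of the 59 genes on day 6 over undifferentiated cells in 4 panels, by line and protocol. Filled points passed the threshold, the dotted line is the median of all genes tested, and every filled point lies left of 0, with open points for CCNA2 in 3 panels and CKAP2 in 1.

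Among cyclins, CDK1 and their regulators, 8 of 9 genes fell in PLB-985 cells with each protocol, and 9 with DMSO+Nutridoma and 8 with DMSO in HL-60 cells. CDK1, the kinase that starts mitosis, had, in PLB-985 cells, 11.7 and 7.64 normalized FPKM with DMSO+Nutridoma and 7.28 and 5.86 with DMSO, against 49.0 and 56.0 undifferentiated. CDK1 in HL-60 cells had 3.14 and 1.36 normalized FPKM with DMSO+Nutridoma and 5.64 and 2.44 with DMSO, against 32.1 and 37.6 undifferentiated. No day 6 library reached the lowest undifferentiated one in either line, and the log2 fold changes with DMSO+Nutridoma were -2.35 ± 0.30, adjusted p = 2.7e-04 in PLB-985 cells and -3.51 ± 0.30, adjusted p = 4.1e-05 in HL-60 cells. CCNB1, a B-type cyclin that carries CDK1 into the nucleus, had, in PLB-985 cells, 11.5 and 6.43 normalized FPKM with DMSO+Nutridoma and 7.94 and 4.19 with DMSO, against 42.0 and 37.8 undifferentiated. HL-60 levels of CCNB1 were 3.04 and 2.00 normalized FPKM with DMSO+Nutridoma and 4.67 and 1.60 with DMSO, against 46.3 and 54.96 undifferentiated. It had the largest fall of any member in HL-60 cells with DMSO, with a log2 fold change of -3.74 ± 0.29, adjusted p = 3.0e-05. CCNB2, the other mitotic B-type cyclin, had, in PLB-985 cells, 10.9 and 7.97 normalized FPKM with DMSO+Nutridoma and 8.71 and 6.35 with DMSO, against 45.0 and 49.7 undifferentiated. HL-60 levels of CCNB2 were 3.80 and 1.43 normalized FPKM with DMSO+Nutridoma and 5.62 and 3.07 with DMSO, against 32.7 and 44.0 undifferentiated. Both cyclins were thus lower in every day 6 library than in any undifferentiated one of the same line.

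PLK1, a kinase needed for spindle poles, kinetochores and cytokinesis, had, in PLB-985 cells, 16.5 and 11.4 normalized FPKM with DMSO+Nutridoma and 11.5 and 9.98 with DMSO, against 91.1 and 83.6 undifferentiated. In HL-60 cells PLK1 had 5.72 and 2.15 normalized FPKM with DMSO+Nutridoma and 7.60 and 4.08 with DMSO, against 68.8 and 86.0 undifferentiated. Its log2 fold change in HL-60 cells with DMSO, -3.56 ± 0.30, adjusted p = 3.8e-05, was among the 3 largest of the members there. AURKA, the kinase of spindle poles, had, in PLB-985 cells, 10.04 and 10.7 normalized FPKM with DMSO+Nutridoma and 7.46 and 8.14 with DMSO, against 33.8 and 48.2 undifferentiated. Levels of AURKA in HL-60 cells were 4.15 and 5.43 normalized FPKM with DMSO+Nutridoma and 5.48 and 5.604 with DMSO, against 22.8 and 44.9 undifferentiated. Replicate 2 was above replicate 1 in all 6 groups for this gene. CDC25B, a phosphatase that activates CDK1, fell less than most, with log2 fold changes of -1.05 ± 0.21, adjusted p = 0.0031 in PLB-985 cells and -1.36 ± 0.21, adjusted p = 8.1e-04 in HL-60 cells with DMSO+Nutridoma, the smallest of any member in HL-60 cells. CDC25B had normalized FPKM of 4.46 and 4.33 in HL-60 cells with DMSO+Nutridoma and 4.91 and 2.37 with DMSO, against 16.7 and 9.88 undifferentiated. CDC25C, a related phosphatase, was low throughout, with, in PLB-985 cells, 1.505 and 0.820 normalized FPKM with DMSO+Nutridoma and 1.17 and 0.610 with DMSO, against 4.01 and 4.39 undifferentiated.

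CCNA2, cyclin A2, which acts from S phase into early mitosis, was the member with the largest error. PLB-985 levels of CCNA2 were 9.60 and 6.92 normalized FPKM with DMSO+Nutridoma and 6.14 and 4.91 with DMSO, against 0 and 48.5 undifferentiated, so that replicate 1 was listed at 0 where replicate 2 was as high as in HL-60 cells. In HL-60 cells CCNA2 had 2.90 and 1.02 normalized FPKM with DMSO+Nutridoma and 4.67 and 2.09 with DMSO, against 31.5 and 48.6 undifferentiated, with no overlap between day 6 and undifferentiated libraries. It passed as lower in HL-60 cells with DMSO+Nutridoma (log2 fold change -3.84 ± 1.42, adjusted p = 0.046) and not with DMSO (log2 fold change -3.26 ± 1.42, adjusted p = 0.078) or in PLB-985 cells with DMSO+Nutridoma (log2 fold change 0.38 ± 1.42, adjusted p = 0.84) or with DMSO (log2 fold change -0.11 ± 1.42, adjusted p = 0.96). The 1 call was lost without the replicate term, without the authors' factor and at pseudocounts of 0.1 and 0.5. Without the library listed at 0, its log2 fold changes were -2.62 (adjusted p = 0.0033), -3.12 (adjusted p = 0.0016), -3.84 (adjusted p = 0.00016) and -3.26 (adjusted p = 0.0003) for PLB-985 cells with DMSO+Nutridoma and with DMSO and for HL-60 cells with DMSO+Nutridoma and with DMSO.

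All 9 genes of the spindle checkpoint, the APC/C and securin fell in each of the 4 comparisons. BUB1B, which encodes BubR1, the checkpoint subunit that holds CDC20 off the APC/C, fell most in PLB-985 cells with DMSO (log2 fold change -3.28 ± 0.26, adjusted p = 2.9e-05). PLB-985 levels of BUB1B were 5.69 and 3.89 normalized FPKM with DMSO+Nutridoma and 4.28 and 3.24 with DMSO, against 42.2 and 48.3 undifferentiated. In HL-60 cells BUB1B had 3.21 and 1.16 normalized FPKM with DMSO+Nutridoma and 4.71 and 2.47 with DMSO, against 50.5 and 49.7 undifferentiated. MAD2L1, the MAD2 protein of the same inhibitor, had the largest fall in PLB-985 cells with DMSO+Nutridoma (log2 fold change -3.03 ± 0.22, adjusted p = 2.5e-05). MAD2L1 in PLB-985 cells had 10.8 and 7.62 normalized FPKM with DMSO+Nutridoma and 8.602 and 7.43 with DMSO, against 80.2 and 83.1 undifferentiated. MAD2L1 in HL-60 cells had 3.49 and 2.02 normalized FPKM with DMSO+Nutridoma and 5.15 and 2.84 with DMSO, against 51.1 and 58.7 undifferentiated. No day 6 library of either gene came near the undifferentiated levels. CDC20, the APC/C activator that the checkpoint inhibits, had the largest fall of any member in HL-60 cells with DMSO+Nutridoma (log2 fold change -4.19 ± 0.39, adjusted p = 6.6e-05). CDC20 levels in HL-60 cells were 5.02 and 1.08 normalized FPKM with DMSO+Nutridoma and 8.41 and 3.18 with DMSO, against 56.4 and 72.1 undifferentiated. CDC20 levels in PLB-985 cells were 18.04 and 8.91 normalized FPKM with DMSO+Nutridoma and 13.7 and 8.36 with DMSO, against 74.6 and 63.7 undifferentiated. UBE2C, the ubiquitin-conjugating enzyme of the APC/C, followed in HL-60 cells with -4.09 ± 0.32, adjusted p = 3.0e-05 under DMSO+Nutridoma.

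BUB1, the kinase that marks kinetochores for the checkpoint, had, in PLB-985 cells, 7.14 and 4.78 normalized FPKM with DMSO+Nutridoma and 4.52 and 3.98 with DMSO, against 25.7 and 26.9 undifferentiated. HL-60 levels of BUB1 were 2.44 and 0.954 normalized FPKM with DMSO+Nutridoma and 3.68 and 1.79 with DMSO, against 15.1 and 26.4 undifferentiated. TTK, the kinase that starts checkpoint signalling, had, in PLB-985 cells, 4.80 and 2.60 normalized FPKM with DMSO+Nutridoma and 3.18 and 1.82 with DMSO, against 20.5 and 20.4 undifferentiated. TTK in HL-60 cells had 1.35 and 0.744 normalized FPKM with DMSO+Nutridoma and 1.54 and 0.835 with DMSO, against 10.6 and 14.6 undifferentiated. Neither gene had a day 6 library above 8 normalized FPKM, nor an undifferentiated one under 10. BUB3, a WD40 protein that also binds splicing factors in human cells, stayed the most abundant of the kinetochore checkpoint genes, with, in PLB-985 cells, 43.7 and 37.0 normalized FPKM with DMSO+Nutridoma and 38.3 and 33.9 with DMSO, against 119 and 121 undifferentiated. HL-60 levels of BUB3 were 36.0 and 39.0 normalized FPKM with DMSO+Nutridoma and 37.8 and 33.2 with DMSO, against 109 and 113 undifferentiated. Its log2 fold changes were smaller than those of most members but had small errors, -1.56 ± 0.12, adjusted p = 3.0e-05 in PLB-985 cells and -1.54 ± 0.12, adjusted p = 2.7e-05 in HL-60 cells with DMSO+Nutridoma. ESPL1, separase, which cuts cohesin at anaphase, was uneven in HL-60 cells with DMSO+Nutridoma, with normalized FPKM of 1.78 and 7.78, with 2.65 and 1.63 with DMSO, against 12.8 and 11.7 undifferentiated. Its log2 fold change there was -1.42 ± 0.43, adjusted p = 0.022, and the groups did not overlap. This call was lost without the filter on low values, with only the 6 libraries of that line, without either undifferentiated HL-60 library, and without replicate 1 of HL-60 cells with DMSO+Nutridoma.

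All 9 centromere and kinetochore genes fell in each comparison, with medians between -1.97 (PLB-985 cells with DMSO+Nutridoma) and -3.01 (HL-60 cells with DMSO+Nutridoma). CENPA, the histone variant that marks centromeres, had, in PLB-985 cells, 6.36 and 5.11 normalized FPKM with DMSO+Nutridoma and 4.78 and 4.83 with DMSO, against 21.6 and 23.8 undifferentiated. HL-60 levels of CENPA were 1.92 and 1.11 normalized FPKM with DMSO+Nutridoma and 4.04 and 2.76 with DMSO, against 12.4 and 19.6 undifferentiated. Its undifferentiated replicates lay further apart in HL-60 than in PLB-985 cells. NDC80, of the complex that grips microtubule ends, had, in PLB-985 cells, 7.09 and 6.66 normalized FPKM with DMSO+Nutridoma and 6.40 and 4.62 with DMSO, against 28.2 and 32.0 undifferentiated. NDC80 in HL-60 cells had 2.04 and 0.991 normalized FPKM with DMSO+Nutridoma and 3.62 and 1.94 with DMSO, against 16.8 and 21.1 undifferentiated. The partners of NDC80 in that complex, NUF2, SPC24 and SPC25, fell as well, with log2 fold changes of -1.87, -2.23 and -1.93 in PLB-985 cells and -3.20, -3.56 and -2.998 in HL-60 cells with DMSO+Nutridoma. CENPM, a subunit of the inner kinetochore, had normalized FPKM of 0.855 and 0.345 in HL-60 cells with DMSO+Nutridoma and 1.48 and 0.718 with DMSO, against 17.1 and 21.8 undifferentiated. CENPM in PLB-985 cells had 2.47 and 1.70 normalized FPKM with DMSO+Nutridoma and 2.41 and 1.19 with DMSO, against 19.3 and 17.4 undifferentiated.

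The 4 genes of the chromosomal passenger complex, which corrects faulty attachments and later marks the cleavage site, fell in every comparison. AURKB, its kinase, had, in PLB-985 cells, 8.74 and 3.59 normalized FPKM with DMSO+Nutridoma and 5.44 and 3.601 with DMSO, against 37.3 and 43.0 undifferentiated. AURKB in HL-60 cells had 2.10 and 0.631 normalized FPKM with DMSO+Nutridoma and 5.22 and 2.32 with DMSO, against 32.1 and 28.5 undifferentiated. The level left in HL-60 cells was 4.50% with DMSO+Nutridoma and 12.4% with DMSO. INCENP, the scaffold of the complex, kept more, with 21.8% and 26.5% in HL-60 cells and 29.2% and 22.1% in PLB-985 cells. BIRC5, survivin, and CDCA8, borealin, which place the complex on the centromere, had log2 fold changes of -2.50 and -1.98 in PLB-985 cells and -3.84 and -2.91 in HL-60 cells with DMSO+Nutridoma.

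All 10 mitotic kinesins, motors that slide, shorten or carry along microtubules, fell in each comparison. KIF11, the motor that pushes spindle poles apart, had, in PLB-985 cells, 7.91 and 6.02 normalized FPKM with DMSO+Nutridoma and 5.31 and 4.54 with DMSO, against 23.2 and 28.2 undifferentiated. HL-60 levels of KIF11 were 2.38 and 0.878 normalized FPKM with DMSO+Nutridoma and 3.85 and 2.09 with DMSO, against 14.7 and 22.4 undifferentiated. KIF20A, which carries the passenger complex to the spindle midzone, had, in PLB-985 cells, 4.36 and 2.80 normalized FPKM with DMSO+Nutridoma and 3.21 and 2.00 with DMSO, against 10.7 and 13.8 undifferentiated. KIF20A in HL-60 cells had 1.02 and 0.286 normalized FPKM with DMSO+Nutridoma and 1.51 and 0.824 with DMSO, against 13.1 and 17.6 undifferentiated. KIF20A kept 4.28% in HL-60 cells with DMSO+Nutridoma. KIF22, a chromokinesin on chromosome arms, was the most abundant of the 10 in every library, with, in PLB-985 cells, 25.8 and 23.4 normalized FPKM with DMSO+Nutridoma and 25.9 and 22.2 with DMSO, against 89.8 and 95.01 undifferentiated. KIF22 in HL-60 cells had 16.2 and 11.8 normalized FPKM with DMSO+Nutridoma and 22.5 and 24.2 with DMSO, against 64.0 and 61.5 undifferentiated. Its log2 fold change in HL-60 cells with DMSO was -1.39 ± 0.14, adjusted p = 9.3e-05, among the 3 smallest.

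Of the 7 genes for spindle and microtubule-associated proteins, 6 fell in PLB-985 cells with DMSO+Nutridoma and 7 in the other comparisons. PRC1, which bundles microtubules in the midzone, had, in PLB-985 cells, 25.8 and 16.5 normalized FPKM with DMSO+Nutridoma and 16.4 and 12.04 with DMSO, against 90.6 and 84.4 undifferentiated. HL-60 levels of PRC1 were 10.4 and 4.02 normalized FPKM with DMSO+Nutridoma and 14.4 and 6.80 with DMSO, against 75.7 and 69.2 undifferentiated. CKAP2, a protein of spindle poles and microtubules, stood apart from the other members, with, in PLB-985 cells, 25.9 and 24.6 normalized FPKM with DMSO+Nutridoma and 23.8 and 20.2 with DMSO, against 38.1 and 41.9 undifferentiated. CKAP2 in HL-60 cells had 19.5 and 10.6 normalized FPKM with DMSO+Nutridoma and 27.3 and 25.6 with DMSO, against 36.6 and 50.9 undifferentiated. Its log2 fold changes were -0.64 ± 0.26, adjusted p = 0.06 (not passed) and -0.84 ± 0.26, adjusted p = 0.022 in PLB-985 cells and -1.52 ± 0.26, adjusted p = 0.0013 and -0.69 ± 0.26, adjusted p = 0.047 in HL-60 cells, with DMSO+Nutridoma and DMSO. The call with DMSO was lost in both lines without the authors' factor, with median-of-ratios scaling and without the filter on low values. In HL-60 cells it was also lost without the replicate term, without the variance trend and with only the 6 libraries of that line. It was further lost without any 1 of 9 libraries in HL-60 cells and any 1 of 3 in PLB-985 cells.

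The 4 cytokinesis genes fell in every comparison. ANLN, anillin, which ties actin, myosin and septins in the cleavage ring, had, in PLB-985 cells, 11.4 and 9.60 normalized FPKM with DMSO+Nutridoma and 7.69 and 6.03 with DMSO, against 29.6 and 33.96 undifferentiated. ANLN in HL-60 cells had 2.05 and 1.28 normalized FPKM with DMSO+Nutridoma and 5.09 and 1.83 with DMSO, against 13.3 and 24.3 undifferentiated. ECT2, the exchange factor that activates RhoA at the cell equator, had, in PLB-985 cells, 4.65 and 3.26 normalized FPKM with DMSO+Nutridoma and 2.14 and 1.42 with DMSO, against 10.8 and 14.6 undifferentiated. ECT2 in HL-60 cells had 3.79 and 2.23 normalized FPKM with DMSO+Nutridoma and 2.12 and 1.59 with DMSO, against 8.602 and 11.3 undifferentiated. It was above the DMSO library of the same replicate with DMSO+Nutridoma in all 4 pairs. CEP55, which recruits the abscission machinery to the midbody, fell, with log2 fold changes of -1.27 ± 0.31 in PLB-985 cells and -2.38 ± 0.31 in HL-60 cells with DMSO+Nutridoma. RACGAP1, of the centralspindlin complex that binds ECT2, fell, with log2 fold changes of -1.92 ± 0.23 and -2.39 ± 0.23 in the same groups.

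All 7 chromosome structure genes fell in each comparison. TOP2A, topoisomerase II alpha, which untangles sister chromatids, had, in PLB-985 cells, 30.7 and 21.2 normalized FPKM with DMSO+Nutridoma and 21.7 and 17.5 with DMSO, against 129 and 116 undifferentiated. HL-60 levels of TOP2A were 11.8 and 2.02 normalized FPKM with DMSO+Nutridoma and 18.96 and 7.43 with DMSO, against 88.3 and 80.9 undifferentiated. MKI67, the Ki-67 protein that coats mitotic chromosomes, had, in PLB-985 cells, 14.3 and 8.14 normalized FPKM with DMSO+Nutridoma and 9.12 and 6.65 with DMSO, against 36.8 and 44.5 undifferentiated. MKI67 in HL-60 cells had 4.17 and 1.52 normalized FPKM with DMSO+Nutridoma and 6.16 and 2.70 with DMSO, against 31.2 and 34.9 undifferentiated. The condensin genes differed among themselves in level. SMC4, a core subunit shared by both condensins, had, in PLB-985 cells, 41.4 and 41.9 normalized FPKM with DMSO+Nutridoma and 37.1 and 41.5 with DMSO, against 142 and 153 undifferentiated. SMC4 in HL-60 cells had 22.5 and 20.5 normalized FPKM with DMSO+Nutridoma and 25.9 and 21.1 with DMSO, against 79.6 and 119 undifferentiated. SMC2, its partner in the ring, was lower than SMC4 in every library, with, in PLB-985 cells, 1.96 and 1.86 normalized FPKM with DMSO+Nutridoma and 1.54 and 1.28 with DMSO, against 10.5 and 10.9 undifferentiated. SMC2 in HL-60 cells had 2.30 and 1.42 normalized FPKM with DMSO+Nutridoma and 2.00 and 1.56 with DMSO, against 9.21 and 10.3 undifferentiated. NCAPD2, a condensin I subunit, was uneven between replicates, with, in PLB-985 cells, 44.7 and 21.98 normalized FPKM with DMSO+Nutridoma and 37.5 and 21.4 with DMSO, against 113 and 80.0 undifferentiated. NCAPD2 in HL-60 cells had 27.99 and 9.55 normalized FPKM with DMSO+Nutridoma and 35.001 and 23.3 with DMSO, against 77.7 and 47.5 undifferentiated, and its replicate 1 was above replicate 2 in all 6 groups. Its log2 fold change in HL-60 cells with DMSO, -1.06 ± 0.22, adjusted p = 0.0032, was among the 3 smallest. This call, and that in PLB-985 cells with DMSO+Nutridoma, was lost without the replicate term.

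The time course in PLB-985 cells with DMSO+Nutridoma shows when the levels fell. The summed level of the 59 genes was 2553 and 2630.5 in undifferentiated cells, 1343 on day 2, 839 on day 4 and 724 and 522 on day 6. The median gene had 53.4% of its undifferentiated mean left on day 2, 33.3% on day 4 and 23.99% on day 6, with ranges of 18.8 to 89.4%, 13.5 to 66.6% and 10.6 to 63.1%. Without CCNA2, whose undifferentiated mean includes the 0, these medians were 53.1%, 33.0% and 23.8%. Day 2 levels were under both undifferentiated libraries for 57 genes, and 54 genes were lower at each later step when day 6 is taken as its mean. The 5 genes that were not lower at each step were BUB3, KIF20B, ECT2, NCAPD2 and SMC4. NCAPD2 alone was lower on day 2 than on day 4, with 38.6 on day 2 and 43.7 on day 4. The day 4 level lay above both day 6 libraries for 48 genes and not for the other 11. These time course counts were not made over all genes tested, of which 35.8% fell on day 6 with this protocol. The exceptions on day 2 were CCNA2, with its 0, and CEP55. The early genes included BUB1B, with 18.8% left on day 2, CENPM with 24.1%, AURKB with 27.8% and MAD2L1 with 29.8%. The late ones included CEP55, with 89.4% on day 2 and 44.3% on day 4, CENPE, the kinesin-like motor of kinetochores, with 89.1% and 56.1%, and CKAP2 with 82.4% and 66.4%. For CEP55 the day 2 level was 112% of undifferentiated replicate 1 but 74.5% of replicate 2.

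PLK1 had normalized FPKM of 37.4 on day 2 and 21.2 on day 4, CDK1 23.0 on day 2 and 15.3 on day 4, and CCNB1 21.3 on day 2 and 14.9 on day 4. BUB1B had normalized FPKM of 8.48 on day 2 and 6.10 on day 4, close to its day 6 levels already. CCNA2 had normalized FPKM of 19.99 on day 2 and 11.2 on day 4, against 48.5 in the undifferentiated library that was not at 0. By role, the passenger complex and chromosome structure genes had medians of 41.1% and 45.4% left on day 2, and cytokinesis genes 60.9%. Days 2 and 4 rest on 1 library each, so that the steps have no replicate check. The labels do not give the repeat of the experiment to which these libraries belong. Total FPKM was 790253 on day 2, within the replicate 2 range of 739094 to 873607. On day 4 it was 997226, within the replicate 1 range of 943987 to 1082042. The step from day 2 to day 4 may thus also hold a difference between repeats, which was not tested. Mitochondrial shares of these libraries were 8.01% on day 2 and 3.70% on day 4. The eosinophil markers EPX, PRG2 and CLC summed to 2157 and 471 there, against 633 and 746 undifferentiated. The part of either in the levels was not tested.

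**Figure D4:**
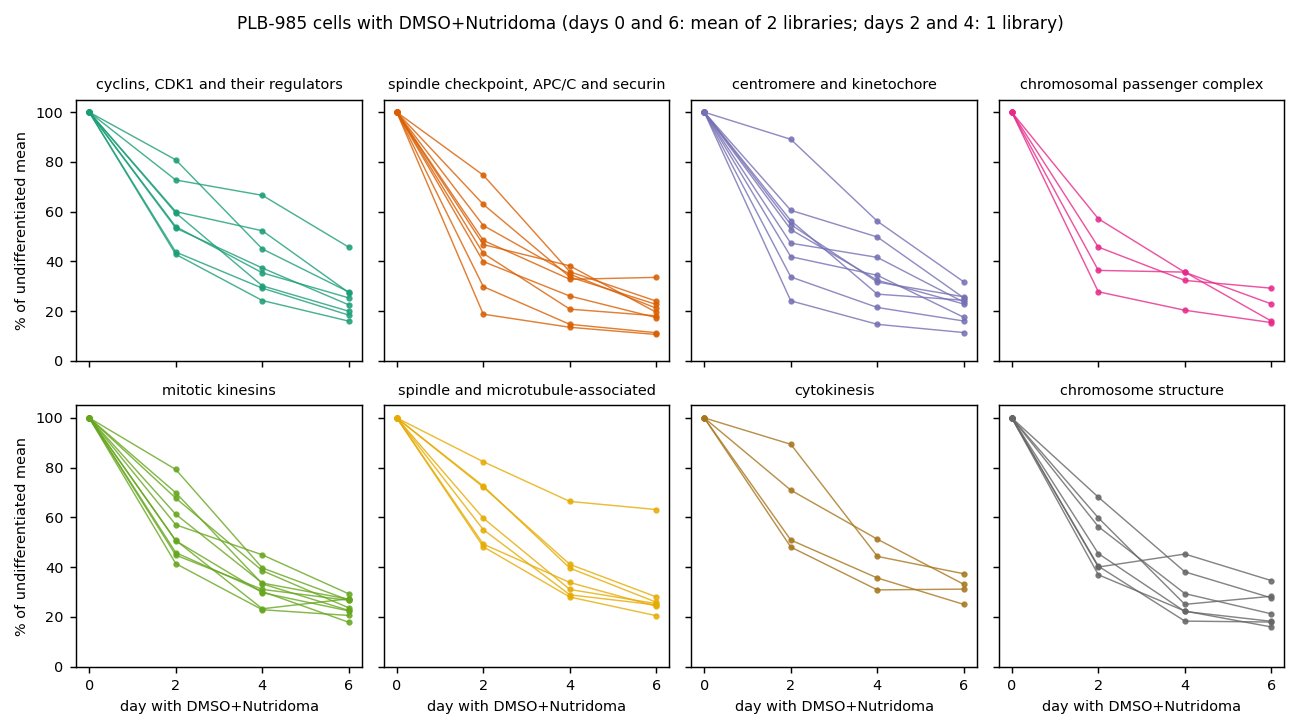
Level of each gene as a percentage of its undifferentiated mean against the day with DMSO+Nutridoma in PLB-985 cells, in 8 panels by role. Each line is 1 gene, days 0 and 6 are means of 2 libraries and days 2 and 4 are 1 library. Nearly all lines descend at each step and CKAP2 ends highest, at 63.1%.

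The next question is whether Nutridoma with low serum changed what DMSO alone did. In PLB-985 cells no gene passed in either direction with limma (1.05% of all genes tested passed), while 5 (8.47%) had an unadjusted p under 0.05, against 13.1% of all genes tested: ECT2, CDC25B, NUF2, KIF15 and NCAPG. All 59 fitted log2 values were above 0, with a median of 0.37, where the median of all genes tested was 0.01. The largest was that of ECT2, 0.83 ± 0.26, adjusted p = 0.2, and that of CDC25B was 0.66 ± 0.21, adjusted p = 0.21. The summed level was 1.33 times that with DMSO in replicate 1 and 1.24 times in replicate 2.

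In HL-60 cells 2 genes fell with DMSO+Nutridoma against DMSO, where 6.61% of all genes tested fell and 9.86% rose (8.46% and 6.5% with FPKM lacking the authors' factor), and none of the 59 rose with limma (0 at an unadjusted p under 0.05). KIF22 had normalized FPKM of 16.2 and 11.8 with DMSO+Nutridoma, against 22.5 and 24.2 with DMSO (log2 fold change -0.71 ± 0.14, adjusted p = 0.016). NCAPD2 had normalized FPKM of 27.99 and 9.55, against 35.001 and 23.3 (log2 fold change -0.76 ± 0.22, adjusted p = 0.049). The values of NCAPD2 overlapped between the groups, and those of KIF22 did not. The NCAPD2 call was lost in 7 alternatives, among them the fit without the replicate term, both other pseudocounts and median-of-ratios scaling, and without any 1 of 11 libraries, the exception being replicate 1 of HL-60 cells with DMSO+Nutridoma. The KIF22 call was lost without the filter, with only the 6 libraries of that line, and without replicate 2 of HL-60 cells with DMSO+Nutridoma or with DMSO. Of the 59 fitted values 51 were below 0, with a median of -0.48 (-0.74 and -0.21 without replicates 1 and 2 of HL-60 cells with DMSO+Nutridoma, and -0.27 and -0.74 without those with DMSO), and the summed level was 0.735 and 0.723 times that with DMSO in the 2 replicates. The count of 2 depended on the library left out, and the share of all genes tested that passed changed with it as well. Over both lines together ECT2 rose (log2 fold change 0.65 ± 0.18, adjusted p = 0.048), 1 of 59 genes where 9.49% of all genes tested rose. ECT2 had normalized FPKM of 4.65 and 3.26 in PLB-985 cells with DMSO+Nutridoma, against 2.14 and 1.42 with DMSO, and 3.79 and 2.23 in HL-60 cells with DMSO+Nutridoma, against 2.12 and 1.59 with DMSO. The call was lost in 4 alternatives (without the replicate term, with FPKM lacking the authors' factor, with median-of-ratios scaling and without the filter) and without any 1 of 7 libraries.

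The difference between the lines in this effect was tested directly. No gene passed with limma (0.515% of all genes tested passed), 25 (42.4%) had an unadjusted p under 0.05, against 13.1% of all genes tested, and the smallest adjusted p was that of KIF15, a motor that helps hold the poles apart (log2 difference 1.11 ± 0.25, adjusted p = 0.15). The fitted difference, PLB-985 minus HL-60, was above 0 for 58 of 59 genes with a median of 0.87, which was 0.56 without replicate 2 of HL-60 cells with DMSO+Nutridoma. KIF15 had normalized FPKM of 4.91 and 2.74 in PLB-985 cells with DMSO+Nutridoma, against 3.08 and 1.66 with DMSO. KIF15 in HL-60 cells had normalized FPKM of 0.639 and 0.370 with DMSO+Nutridoma, against 1.91 and 0.768 with DMSO. Without replicate 1 of HL-60 cells with DMSO+Nutridoma 8 genes passed, 7 higher and 1 lower, where 6.76% of all genes tested passed. The same test on the change that DMSO alone brought passed for no gene with limma (1.31% of all genes tested passed), and 4 genes (6.78%) had an unadjusted p under 0.05, against 12.3% of all genes tested.

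The summed level of the 3 monocyte markers reported here was higher with DMSO+Nutridoma than with DMSO in both lines. The 59 genes had median log2 values of 0.37 in PLB-985 cells and -0.48 in HL-60 cells for the same contrast. CD14, CSF1R and CD163 summed to 581 and 471 in HL-60 cells with DMSO+Nutridoma, against 52.3 and 63.96 with DMSO, and these 3 rose. In PLB-985 cells they summed to 35.5 and 33.9 with DMSO+Nutridoma, against 2.74 and 2.62 with DMSO, and 2 of 3 rose, CSF1R not. Undifferentiated cells had sums of 0.385 to 1.92. The part of this in the lower levels of the mitotic genes in HL-60 cells was not tested. Eosinophil markers (EPX, PRG2 and CLC) summed to 10.6 to 245 on day 6, against 633 and 746 in undifferentiated PLB-985 cells and 12.04 and 442 in undifferentiated HL-60 cells. Erythroid and lymphoid markers were near 0.

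**Figure D5:**
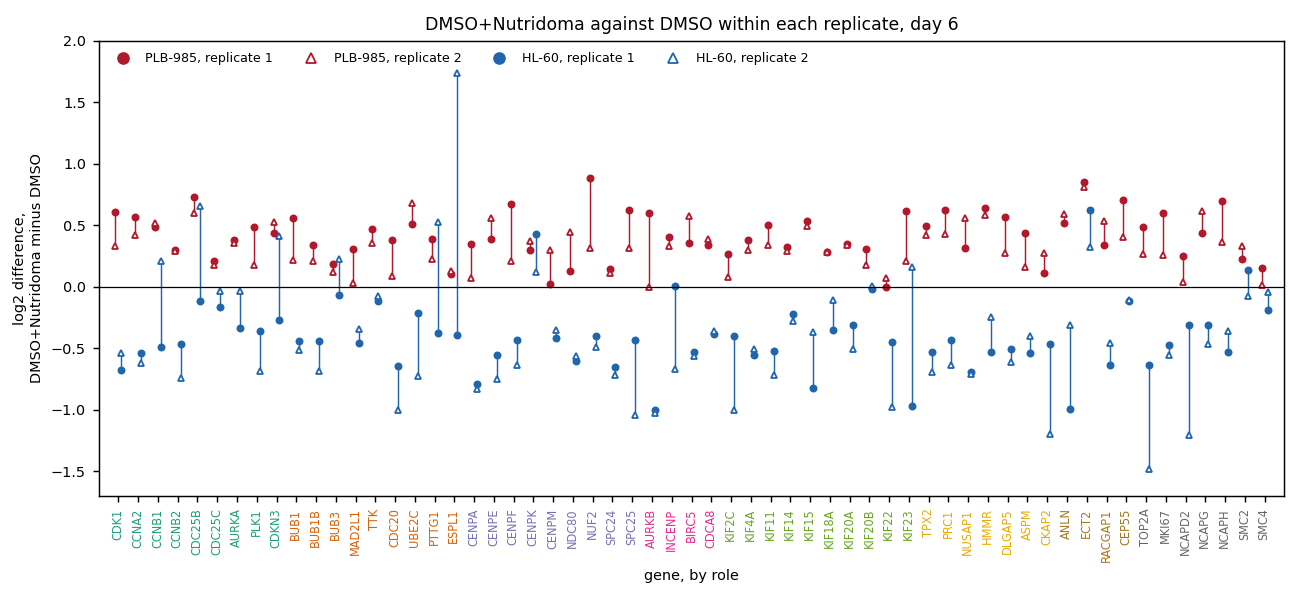
Log2 difference between cells with DMSO+Nutridoma and cells with DMSO on day 6, computed within each replicate, for the 59 genes (columns) in PLB-985 cells (red) and HL-60 cells (blue), with circles for replicate 1, triangles for replicate 2 and a line joining them. The red points of 57 genes lie above 0 in both replicates (35% of all genes tested) and the blue points of 47 genes lie below 0 in both (32.8% of all).

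Between the lines, PLB-985 cells had the higher levels of most genes, and by far the most calls with DMSO+Nutridoma. There 51 of the 59 genes were higher in PLB-985 than in HL-60 cells, where 11.2% of all genes tested were higher and 12.8% lower (15.4% and 8.87% with FPKM lacking the authors' factor), and none of the 59 was lower with limma (0 at an unadjusted p under 0.05). The median log2 difference was 1.34 (all genes tested, -0.01), and the summed level was 2.27 times that of HL-60 cells in replicate 1 and 2.66 times in replicate 2. The smallest p values belonged to KIF15 (log2 difference 1.65 ± 0.18, adjusted p = 7.6e-04), NUF2 (log2 difference 1.59 ± 0.19, adjusted p = 0.0014), BIRC5 (log2 difference 1.67 ± 0.23, adjusted p = 0.0023), NDC80 (log2 difference 1.68 ± 0.25, adjusted p = 0.0033) and MAD2L1 (log2 difference 1.46 ± 0.22, adjusted p = 0.0034). NUF2 had normalized FPKM of 7.91 and 3.52 in PLB-985 cells, against 1.55 and 0.728 in HL-60 cells. BIRC5 had normalized FPKM of 8.97 and 6.37, against 2.77 and 0.935. In all of these the higher HL-60 value lay below the lower PLB-985 value. By role, all 4 passenger complex genes, 9 of 10 kinesins, 8 of 9 cyclins and regulators, 8 of 9 kinetochore genes, 7 of 9 checkpoint genes, 6 of 7 spindle genes, 6 of 7 chromosome structure genes and 3 of 4 cytokinesis genes passed.

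The 8 genes that did not pass had log2 differences of 0.10 (BUB3), 0.02 (ESPL1), -0.06 (CENPK), 0.04 (SMC2), 0.32 (ECT2), 0.55 (KIF20B), 0.77 (CKAP2) and 1.71 (CCNA2). BUB3 had normalized FPKM of 43.7 and 37.0 in PLB-985 cells, against 36.0 and 39.0 in HL-60 cells. The count of 51 was 32 without the replicate term, 16 without replicate 1 and 32 without replicate 2 of PLB-985 cells with DMSO+Nutridoma, and 27 without replicate 2 of HL-60 cells with DMSO+Nutridoma. Without the filter on low values 5 genes passed.

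With DMSO alone 2 genes were higher in PLB-985 cells (5.14% of all genes tested were higher). MAD2L1 had normalized FPKM of 8.602 and 7.43 in PLB-985 cells, against 5.15 and 2.84 in HL-60 cells (log2 difference 0.89 ± 0.22, adjusted p = 0.04). SMC4 had normalized FPKM of 37.1 and 41.5, against 25.9 and 21.1 (log2 difference 0.72 ± 0.18, adjusted p = 0.045). The median difference was 0.54 (0.29 when the HL-60 library of replicate 2 is left out), and the summed level was 1.25 and 1.55 times that of HL-60 cells in the replicates. Among undifferentiated cells 1 gene was higher in PLB-985 cells (7.88% of all genes tested were higher), KIF22, with normalized FPKM of 89.8 and 95.01, against 64.0 and 61.5 (log2 difference 0.55 ± 0.14, adjusted p = 0.037). The median difference was 0.34, but 0.0064 without replicate 1 of undifferentiated HL-60 cells, 0.65 without their replicate 2, and 0.56 and 0.17 without replicates 1 and 2 of undifferentiated PLB-985 cells, and the summed level was 1.29 and 1.15 times that of HL-60 cells. These 3 calls were lost without the replicate term, with median-of-ratios scaling and without the filter, and that of KIF22 without any 1 of 9 libraries and those of MAD2L1 and SMC4 without any 1 of 8.

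Set beside the promoter letters, the genes with neither motif had the smallest median fall in all 4 comparisons, and those with CCAAT alone the largest. In HL-60 cells with DMSO+Nutridoma the median log2 fold change was -2.91 for the 30 genes with CHR and CCAAT, -2.98 for the 8 with CHR alone, -3.63 for the 8 with CCAAT alone and -2.08 for the 5 with neither. In PLB-985 cells with DMSO+Nutridoma the medians were -1.87, -1.99, -2.15 and -1.28 in the same order. With DMSO they were -2.32, -2.37, -2.46 and -1.71 in PLB-985 cells and -2.35, -2.49, -3.17 and -1.79 in HL-60 cells. KIF2C, which depolymerizes microtubule ends and has neither motif in its window, fell, with log2 fold changes of -2.36 ± 0.28 in PLB-985 cells and -3.66 ± 0.28 in HL-60 cells with DMSO+Nutridoma. The groups are small and were not tested against each other.

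Genes that act beside the 59 were counted from lists of their own, on day 6 against undifferentiated cells, where 33.6 to 35.8% of all genes tested fell. Of 13 further regulators of mitotic entry and exit, 11 fell in PLB-985 cells and 11 in HL-60 cells with DMSO+Nutridoma and 12 in each line with DMSO. CDC25A, a phosphatase that activates cyclin-dependent kinases, fell, with log2 fold changes of -3.06 ± 0.27 and -4.001 ± 0.27 in PLB-985 and HL-60 cells with DMSO+Nutridoma. PKMYT1 and WEE1, the kinases that hold CDK1 inactive, fell as well, with log2 fold changes of -2.58 and -2.69 in PLB-985 cells and -4.27 and -3.57 in HL-60 cells with DMSO+Nutridoma. CKS1B, a small subunit of CDK complexes, fell, with log2 fold changes of -2.75 and -3.37. FZR1, which activates the APC/C in G1, rose in HL-60 cells with DMSO (log2 fold change 0.30 ± 0.11, adjusted p = 0.049), with normalized FPKM of 19.98 and 24.8 against 16.6 and 19.2 undifferentiated. Of 29 other kinetochore subunits, 27 fell in each line with DMSO+Nutridoma, and with DMSO 29 fell in PLB-985 cells and 27 in HL-60 cells, among them CENPU, with log2 fold changes of -2.80 and -3.44 with DMSO+Nutridoma. All 3 subunits specific to condensin II, NCAPG2, NCAPD3 and NCAPH2, fell in every comparison.

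The core of the APC/C, which works outside mitosis as well, moved less. Of 15 genes 9 fell and 1 rose in PLB-985 cells with DMSO+Nutridoma and 8 fell and none rose in HL-60 cells, with 9 lower and 1 higher in each line with DMSO. UBE2S, its chain-extending enzyme, fell, with log2 fold changes of -2.10 ± 0.16 in PLB-985 cells and -2.58 ± 0.16 in HL-60 cells with DMSO+Nutridoma, and ANAPC2, its cullin subunit, rose in PLB-985 cells (log2 fold change 0.58 ± 0.14, adjusted p = 0.0082). Among 15 genes for cohesin and its regulators, more fell than rose. With DMSO+Nutridoma 8 fell and 2 rose in PLB-985 cells, and 10 fell and 4 rose in HL-60 cells. With DMSO 9 fell and 3 rose in PLB-985 cells, and 9 fell and 4 rose in HL-60 cells. Of all genes tested, 33.6 to 35.8% fell and 24 to 26% rose in these comparisons. CDCA5, sororin, and ESCO2, an acetyltransferase that acts in S phase, fell, with log2 fold changes of -2.58 and -2.35 in PLB-985 cells and -3.53 and -1.94 in HL-60 cells with DMSO+Nutridoma. NIPBL and MAU2, which load cohesin on DNA in all phases, rose, with log2 fold changes of 0.43 and 0.66 in PLB-985 cells and 0.52 and 0.51 in HL-60 cells. Of general cytokinesis and abscission genes, 8 of 11 were found in the table under the listed symbols. CIT, citron kinase, and MYH10, a nonmuscle myosin, fell in all 4 comparisons, and CHMP4B and TSG101, of the ESCRT machinery, rose in all 4.

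Regulators of the G2 and M phase promoters were counted too. Of 19 genes for MuvB, E2F, RB and FOXM1 proteins 14 fell in each line with DMSO+Nutridoma and 13 with DMSO. MYBL2, the B-MYB partner of MuvB in dividing cells, had, in PLB-985 cells, 14.4 and 9.18 normalized FPKM with DMSO+Nutridoma and 8.85 and 5.82 with DMSO, against 103 and 121 undifferentiated. In HL-60 cells MYBL2 had 2.95 and 1.06 normalized FPKM with DMSO+Nutridoma and 5.70 and 2.58 with DMSO, against 63.1 and 94.4 undifferentiated. FOXM1, a factor that binds with them, had, in PLB-985 cells, 8.10 and 5.06 normalized FPKM with DMSO+Nutridoma and 5.07 and 3.49 with DMSO, against 32.4 and 35.5 undifferentiated. FOXM1 in HL-60 cells had 3.07 and 1.22 normalized FPKM with DMSO+Nutridoma and 5.55 and 2.82 with DMSO, against 37.8 and 45.5 undifferentiated. LIN37, a MuvB subunit needed for repression, and RB1 rose in all 4 comparisons, LIN37 by 0.85 ± 0.21 in PLB-985 cells and 0.93 ± 0.21 in HL-60 cells with DMSO+Nutridoma. LIN37 in PLB-985 cells had 4.38 and 7.92 normalized FPKM with DMSO+Nutridoma and 5.99 and 6.16 with DMSO, against 2.44 and 3.31 undifferentiated. LIN37 levels in HL-60 cells were 6.18 and 7.51 normalized FPKM with DMSO+Nutridoma and 6.17 and 8.83 with DMSO, against 3.41 and 2.83 undifferentiated. RBL2, which encodes p130 of the same repressor, rose in PLB-985 cells with both protocols (log2 fold change 0.52 ± 0.19 with DMSO+Nutridoma) and in HL-60 cells with DMSO (log2 fold change 1.14 ± 0.19).

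CDK inhibitors rose in part. CDKN1A, p21, had normalized FPKM of 13.1 and 16.6 in PLB-985 cells with DMSO+Nutridoma and 5.55 and 6.27 with DMSO, against 0.499 and 4.08 undifferentiated. CDKN1A in HL-60 cells had normalized FPKM of 44.1 and 127 with DMSO+Nutridoma and 2.06 and 2.06 with DMSO, against 0.231 and 0.227 undifferentiated, a rise of 5.95 ± 0.46, adjusted p = 2.8e-05 on the log2 scale with DMSO+Nutridoma. Its level in HL-60 cells with DMSO+Nutridoma was thus above every other library. CDKN2D, p19, had normalized FPKM of 31.7 and 20.9 in PLB-985 cells with DMSO+Nutridoma, against 4.42 and 5.77 undifferentiated. CDKN2B, p15, rose in both lines with DMSO+Nutridoma, by 1.79 ± 0.62 in PLB-985 cells and 3.70 ± 0.62 in HL-60 cells. CDKN2C, p18, fell in HL-60 cells with DMSO+Nutridoma (log2 fold change -1.59 ± 0.20) and with DMSO (log2 fold change -0.78 ± 0.20). Of 6 inhibitors tested, 3 rose in PLB-985 cells with each protocol, and 2 with DMSO+Nutridoma and 4 with DMSO in HL-60 cells. In these comparisons 24 to 26% of all genes tested rose and 33.6 to 35.8% fell. Among tubulins and stathmin, STMN1, which destabilizes microtubules, fell most with DMSO+Nutridoma, with log2 fold changes of -2.01 ± 0.31 in PLB-985 cells and -3.76 ± 0.31 in HL-60 cells, and of 7 genes tested 5 and 6 fell there, against 6 in each line with DMSO.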

How the data were processed

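RNA from 14 libraries was sequenced by the authors as single-end reads of polyadenylated transcripts, aligned with STAR 2.4 in a 2-pass mode to GRCh38.p5 with GENCODE annotation, and quantified with Cufflinks 2.2.1, which gave the deposited FPKM values. The authors then scaled each library by 1 factor drawn from uniformly expressed genes and deposited log10 values, in which an FPKM of 0 is set to -4. These log10 values were turned back to a linear scale here. The tables hold no read counts, so no interval from depth can be given.

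The 13778 rows that reached 1 normalized FPKM in 2 or more replicated libraries (12 in all) were tested with limma 3.58.1 in R 4.3.3 on log2(normalized FPKM + 1), with 6 groups and the replicate number as terms, and a trend in the variance. P values were adjusted by Benjamini and Hochberg over all genes within each of 12 comparisons, at a threshold of 0.05, and SE is that of the fit. The study states that the experiment was repeated on 2 days, not that a replicate number marks a day, so the pairing is taken from the libraries themselves. Over all rows tested, deviations of same-numbered libraries from their group means correlated with r of 0.653 to 0.852 over 15 pairs of groups. Over the mitosis and cytokinesis genes alone, r was lower, 0.036 to 0.706. It was 0.437 to 0.706 between day 6 groups and 0.036 to 0.415 in pairs with an undifferentiated group. The shared shift is thus less evident for these genes, least so between undifferentiated and day 6 cells. The fit was also run on simulated data with independent errors, whose spread and replicate shift were taken from these libraries.

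Members and lists were chosen with earlier results of these data known. All members were counted by role. Per-library values were given for members central to each role (CDK1, CCNB1, CCNB2, CCNA2, PLK1, AURKA, AURKB, CDC20, BUB1, BUB3, MAD2L1, TTK, CENPA, NDC80, KIF11, KIF20A, PRC1, ANLN, ECT2, TOP2A, MKI67, SMC2 and SMC4). Also named were the 3 largest and 3 smallest changes against undifferentiated cells, members that did not pass, and in other comparisons the members that passed (5 with the smallest p where over 10). CENPE, RACGAP1, KIF2C, CDCA8 and other members named beyond this, and genes of the other lists beyond the 3 with the largest change, were chosen after their values were seen. Promoter windows are from RefSeq (GRCh38.p14), and RACGAP1, BIRC5, AURKA, CENPM, UBE2C, BUB3, TPX2 and TTK had none. Alternatives were the fit without the replicate term, FPKM without the authors' factor, median-of-ratios scaling, pseudocounts of 0.1 and 0.5, no filter and a filter at 5 normalized FPKM, no variance trend, and leaving out each library. For comparisons within a line, a fit on only the 6 libraries of that line was run too. 1 gene of the monocyte list is not reported here, a choice made without regard to its values.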

Additional observations from a re-analysis of the deposited data

Results flagged for a closer look

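The effect of Nutridoma with low serum, set against DMSO within each replicate, went opposite ways in the lines for 45 of the 59 genes: they were higher with DMSO+Nutridoma in both replicates of PLB-985 cells and lower in both of HL-60 cells, as did 5.47% of all genes tested. None of the 59 showed the opposite arrangement (5.49% of all genes tested). In both PLB-985 replicates 57 genes were higher (35% of all genes tested), and 47 were lower in both HL-60 replicates (32.8% of all). The 45 were picked out because every sample of each line moved its own way. The difference between the lines was also tested gene by gene with limma, where none of the 59 passed, 25 (42.4%) had an unadjusted p under 0.05, against 13.1% of all genes tested, and the median difference was 0.87 on the log2 scale. TOP2A, for example, had 30.7 and 21.2 in PLB-985 cells with DMSO+Nutridoma (normalized FPKM), against 21.7 and 17.5 with DMSO, and 11.8 and 2.02 in HL-60 cells with DMSO+Nutridoma, against 18.96 and 7.43 with DMSO. Its log2 difference in HL-60 cells was -0.64 in replicate 1 and -1.48 in replicate 2. The latter was the lowest of the 59 genes in that replicate, where the median was -0.50.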

How the results depend on the processing

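Against undifferentiated cells 53 to 59 of the 59 genes fell under every alternative run, with the lowest count, 53, without the filter on low values (PLB-985, DMSO+Nutridoma). Leaving out each library gave 55 to 58 (PLB-985) and 57 to 59 (HL-60) with DMSO+Nutridoma, and 57 to 59 and 57 to 58 with DMSO. The replicate block was part of the main fit. Without this pairing the counts were 56 and 58 in PLB-985 and 58 and 56 in HL-60 cells, with DMSO+Nutridoma and DMSO, and those of the other comparisons were 1 for DMSO+Nutridoma against DMSO in HL-60 cells, 0 over both lines, and 0, 0 and 32 for PLB-985 against HL-60 cells undifferentiated, with DMSO and with DMSO+Nutridoma. For DMSO+Nutridoma against DMSO in HL-60 cells, 2 genes passed, but 4 did with FPKM lacking the authors' factor or a pseudocount of 0.1, 1 with median-of-ratios scaling or no variance trend, and 0 without the filter or with only the 6 libraries of that line (0 to 10 leaving out each library). Its median, -0.48, was -0.63 without the factor, -0.71 and -0.58 with pseudocounts of 0.1 and 0.5, and -0.74 to -0.21 leaving out each library. In PLB-985 cells the median, 0.37, was 0.45 with a pseudocount of 0.1 and 0.27 to 0.51 leaving out each library, and the count stayed at 0. Over both lines 1 gene passed, and 0 without the factor, with median-of-ratios scaling or without the filter (0 to 7 leaving out each library).

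For PLB-985 against HL-60 cells the counts of 1 (undifferentiated) and 2 (DMSO) were 0 and 0 with median-of-ratios scaling or without the filter, the count with DMSO was 1 without the factor or the variance trend, and that of 51 with DMSO+Nutridoma was 5 without the filter. Leaving out each library gave 0 to 5, 0 to 3 and 16 to 53, and 0 to 1 and 0 to 8 for the differences between lines in what DMSO did and in what Nutridoma added. The median of that last difference, 0.87, was 1.08 without the factor, 0.92 with median-of-ratios scaling, 1.15 and 1.01 with pseudocounts of 0.1 and 0.5, and 0.56 to 1.10 leaving out each library. The day 4 median, 33.3%, was 40.7% without the factor and 32.0% against undifferentiated replicate 2 alone. CCNA2 changed sign in PLB-985 cells with DMSO (0.25 without the factor, 0.14 with median-of-ratios scaling, 1.34 and 0.28 with pseudocounts of 0.1 and 0.5, and -3.12 to 2.89 leaving out each library) and with DMSO+Nutridoma (-2.62 to 3.39 leaving out each library). Between the lines with DMSO+Nutridoma, signs also changed for CENPK (0.071 without the factor) and, leaving out each library, CENPK (-0.33 to 0.22), BUB3 (-0.0089 to 0.21), ESPL1 (-0.85 to 0.89) and SMC2 (-0.16 to 0.24). Leaving out the factor moved the median of all genes to -0.01 (PLB-985, DMSO+Nutridoma), -0.03 (PLB-985, DMSO), -0.07 (HL-60, DMSO+Nutridoma), 0.03 (HL-60, DMSO) and 0.12 (PLB-985 against HL-60 with DMSO+Nutridoma, and likewise the line difference in what Nutridoma added). The causes were not tested.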
